A study of Homo sapiens with 18 samples.

Results

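The genes of 10 interleukin receptor chains were followed through the NR4A knockdown and LPS experiment: IL7R, IL2RA, IL2RG, IL4R, IL6R, IL6ST, IL10RA, IL10RB, IL13RA1 and IL15RA. They are 10 of the 57500 genes in the deposited count tables, and each symbol matched 1 Ensembl gene in GENCODE 29. The 10 genes were chosen by their read counts and group differences in these same libraries, so their values are given as a description, with no test or p-value for any single one of them. Only the number of them called genome-wide is counted, beside the share of all genes.

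The libraries came from THP-1, an established monocytic line grown from a human leukaemia, carried as 3 stable lines with a lentiviral short hairpin RNA. The shNT line had a hairpin without a target, the shNR4A2 line a hairpin against NR4A2 and the shNR4A3 line a hairpin against NR4A3, where NR4A2 and NR4A3 are orphan nuclear receptors that act as immediate early transcription factors. Cells of each line were kept without stimulus (control) or given LPS, the bacterial lipopolysaccharide sensed through TLR4, at 2.5 µg/ml for 2 h, with 3 libraries in each of the 6 groups and 18 in all. Each knockdown was carried by a single line, so the effect of a hairpin and a property of the line that carries it cannot be told apart. Total counts per library ran from 16171161 to 23929138. All groups share the THP-1 background, a lentiviral hairpin vector, puromycin selection of the lines and poly(A)-selected libraries, and untransduced cells were not analysed here. The study describes the libraries of a group as independent experiments.

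Interleukin receptors of this kind work as pairs or trios of chains. A chain such as IL7R, IL4R, IL6R, IL10RA or IL15RA binds the cytokine. A further chain such as IL2RG (the common gamma chain), IL6ST (gp130), IL10RB or, for IL-4, IL13RA1 completes the complex. JAK kinases bound to the signalling chains then phosphorylate STAT transcription factors. IL7R is best known from lymphocytes, where it carries the survival signal of IL-7 and, with CRLF2, that of TSLP, while monocytes are known for IL-6 and IL-10 receptors.

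The promoters of IL7R and IL2RG are shown because these genes differed in opposite directions in the knockdown lines. The 250 bases before the RefSeq start are given (GRCh38.p14, IL7R at chr5:35856641-35856890 on the plus strand, IL2RG at chrX:71111578-71111827 on the minus strand), 5′ to 3′ along each gene. Capitals mark the letters CAGGAAGT of an ETS-family site, here on the opposite strand. The IL2RG stretch does not hold these exact letters, and other forms of an ETS-family site were not searched.
IL7R: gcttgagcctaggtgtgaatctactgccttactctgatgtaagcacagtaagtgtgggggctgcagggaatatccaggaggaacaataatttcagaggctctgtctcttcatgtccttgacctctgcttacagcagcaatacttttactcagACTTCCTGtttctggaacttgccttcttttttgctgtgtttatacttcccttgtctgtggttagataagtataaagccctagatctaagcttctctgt
IL2RG: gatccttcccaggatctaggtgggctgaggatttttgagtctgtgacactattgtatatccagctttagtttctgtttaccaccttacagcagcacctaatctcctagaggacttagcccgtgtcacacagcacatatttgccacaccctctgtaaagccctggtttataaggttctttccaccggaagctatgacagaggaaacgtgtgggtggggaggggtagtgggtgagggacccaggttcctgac

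Motifs were searched on both strands of such 250-base stretches for all 10 genes, which have 13 stretches because IL15RA has 4 starts. The NR4A monomer site NBRE, with the letters AAAGGTCA, was in none of the 13 and in 1.05% of all 35116 RefSeq stretches. The letters CAGGAAGT, a site of ETS-family factors, lay in IL7R on the opposite strand from base -98 (counted back from the RefSeq start) and in 1 of the 4 IL15RA stretches, against 2.60% of all stretches. Of the 10 genes IL15RA alone held the STAT site GAS, TTCNNNGAA, as TTCGGCGAA (6.57% of all), the NF-kappaB site lay in IL2RA and IL4R (5.21% of all), and the interferon-response core ISRE lay in none (3.02% of all). The ETS and GAS matches of IL15RA lie in different stretches and do not overlap. In IL2RA the NF-kappaB letters matched on both strands at overlapping positions. A match of letters is a description of the sequence, and no binding was measured.

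Hairpin labels were checked first. NR4A2 had 4.16, 2.83 and 4.08 TPM (counts divided by gene length and scaled to the same sum, 1000000, per library) in shNT control cells and 1.82, 1.63 and 2.41 TPM in shNR4A2 control cells. In the presence of LPS it had 62.2, 74.7 and 51.3 TPM in shNT cells and 20.5, 28.3 and 14.8 TPM in shNR4A2 cells. The groups did not overlap in either state, and by edgeR's quasi-likelihood test with Benjamini-Hochberg adjustment NR4A2 was lower by a log2 fold change of -0.91 (SE 0.23, adjusted p = 0.0359) in the control state, a call lost without any of 4 libraries (-0.88 to -0.81), and of -1.52 (SE 0.19, adjusted p = 0.00265) with LPS. NR4A3 was lower in shNR4A3 cells by -2.47 (SE 0.50, adjusted p = 0.00767) in the control state, from 58 and 9 counts over 3 libraries each, where DESeq2 gave -2.52 with no adjusted p, and by -0.82 (SE 0.080, adjusted p = 0.000556) with LPS. Both target genes were lower in their own lines, and NR4A3 still reached 17.3 ± 0.807 TPM (SD, n = 3) in shNR4A3 cells with LPS, against 31.7 ± 0.708 TPM in shNT cells. NR4A2 was not called in shNR4A3 cells with LPS (-0.36, SE 0.16, edgeR adjusted p = 0.198), but it was lower there in the fit blocked by replicate (-0.37, adjusted p = 0.00132), without the filter on low counts (-0.39, adjusted p = 0.0109) and without shNR4A3 LPS replicate 2 (-0.55, adjusted p = 0.0234). NR4A1, which no hairpin was made against, rose with LPS by 1.48, 1.40 and 1.88 in shNT, shNR4A2 and shNR4A3 cells (edgeR adjusted p = 1.95e-05, 5.12e-05 and 3.63e-05). It was not called between any 2 lines (-0.34 to 0.20), except in the blocked fit of shNR4A2 against shNR4A3 with LPS (-0.27, adjusted p = 0.0136).

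The libraries carried a monocytic profile. All 10 monocytic markers (CD14, LYZ, CD33, ITGAM, CSF1R, SPI1, CD68, FCGR1A, CD4 and CSF3R) had a mean of at least 1 TPM in every group. Their summed level was 1214 to 1343 TPM in shNT control libraries, 1776 to 2022 TPM in shNR4A2 control libraries and 2018 to 2487 TPM in shNR4A3 control libraries. With LPS it was 1283 to 1477, 1851 to 2114 and 2085 to 2497 TPM in the same order of lines, so the sum was higher in both knockdown lines than in shNT cells. SPI1 was the most abundant of the list in 5 groups (571 TPM in shNT control cells) and LYZ in shNR4A3 control cells (883 TPM). The part of this difference between the lines in the receptor results was not tested.

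Defining markers of T cells were near 0, and those of other lymphocytes were low or mixed. Of the T cell markers CD3D, CD3E, CD3G and CD2 had 23, 22, 19 and 10 counts over all 18 libraries, and 3 of the 10 T cell markers reached 1 TPM in each group, with TRAC or CD5 the most abundant at 2.83 to 6.66 TPM. The summed T cell list had 7.74 to 14.4 TPM per library. MS4A1 had 3 counts in 18 libraries, while the other 4 of the 5 B cell markers reached 1 TPM in every group, with a summed list of 5.47 to 17.3 TPM. NKG7 alone of the 5 NK cell markers reached 1 TPM (38.5 to 54.5 TPM by group), while KLRD1 had 7 counts. IL7R had 5.50 to 104 TPM in the same libraries.

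IL7R (ENSG00000168685, chromosome 5, 35852695 to 35879603 on the plus strand of GRCh38) lay higher with LPS in every line and higher in both knockdown lines than in shNT cells. It had 7.77, 5.50 and 6.69 TPM in the 3 shNT control libraries and 30.0, 19.3 and 22.9 TPM with LPS. In shNR4A2 cells it had 28.3, 23.3 and 26.3 TPM without LPS and 97.6, 63.0 and 104 TPM with LPS. The shNR4A3 libraries had 10.6, 11.6 and 15.0 TPM without LPS and 64.9, 30.9 and 65.4 TPM with LPS. The LPS libraries all lay above the controls of their own line, and every library of a knockdown line lay above every shNT library in the same state, the closest being 30.9 against 30.0 TPM with LPS. These are bulk measurements, in which more cells with the transcript and more of it per cell cannot be told apart.

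**Figure D1:**
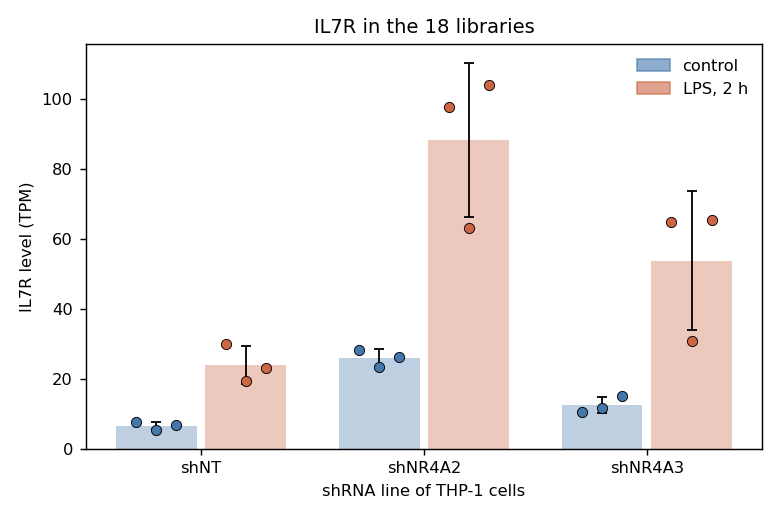
IL7R level in TPM (vertical axis, starting at 0) in the 3 THP-1 lines (horizontal axis) without LPS (blue) and with LPS for 2 h (orange); points are the 3 libraries, bars their mean and whiskers 1 SD. The shNR4A2 control libraries (23.3 to 28.3 TPM) sit at the height of the shNT libraries with LPS (19.3 to 30.0 TPM).

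The 6 groups ordered as follows by mean level: 88.1 ± 21.97 TPM (SD, n = 3) in shNR4A2 cells with LPS, 53.7 ± 19.8 in shNR4A3 cells with LPS, 25.97 ± 2.53 in shNR4A2 control cells, 24.1 ± 5.44 in shNT cells with LPS, 12.4 ± 2.32 in shNR4A3 control cells and 6.65 ± 1.14 in shNT control cells. The 2 knockdown groups with LPS overlapped, as did shNR4A2 control and shNT LPS, which change places when levels are expressed as CPM after TMM scaling. The other neighbours did not overlap, although shNR4A3 LPS and shNR4A2 control were separated only by 30.9 against 28.3 TPM. Unstimulated shNR4A2 cells and LPS-treated shNT cells thus had IL7R levels within the spread of their libraries.

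The log2 fold changes of IL7R fitted by edgeR for LPS were 2.07 (SE 0.17) in shNT cells, 2.05 (SE 0.20) in shNR4A2 cells and 2.36 (SE 0.27) in shNR4A3 cells. Against shNT cells, IL7R was higher in shNR4A2 cells by 1.97 (SE 0.14) in the control state and 1.94 (SE 0.24) with LPS, and in shNR4A3 cells by 0.95 (SE 0.16) and 1.23 (SE 0.28). The LPS response differed from that of shNT cells by -0.02 (SE 0.29) in shNR4A2 cells and 0.28 (SE 0.37) in shNR4A3 cells. As folds, IL7R differed from shNT control cells by 3.91 in shNR4A2 and 1.93 in shNR4A3 control cells, beside 4.21 for LPS in shNT cells. Comparisons of the lines share the shNT libraries, and the LPS and knockdown comparisons share the control libraries.

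Replicate 2 was the lowest of the 3 LPS libraries in all 3 lines, at 19.3, 63.0 and 30.9 TPM. Within same-numbered libraries the TPM ratio of shNR4A3 to shNT with LPS was 2.16, 1.60 and 2.85, and that of shNR4A2 to shNT was 3.26, 3.27 and 4.52, so each pair kept the direction. Directly compared, shNR4A2 cells had more IL7R than shNR4A3 cells by 1.02 (SE 0.15) in the control state and by 0.71 (SE 0.32) with LPS. With LPS the groups overlapped, and shNR4A2 was the higher in each of the 3 same-numbered pairs.

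The number of the 10 genes called, by an edgeR adjusted p under 0.05 over all genes tested, is given beside the share of all tested genes called in that direction. IL2RA did not pass the filter on low counts in any comparison, so 9 of the 10 genes were tested. With LPS, 5 of 9 were higher and 1 lower in shNT cells (11.6% and 13.3% of all tested genes), 4 higher and 1 lower in shNR4A2 cells (9.23% and 10.1%), and 4 higher and 2 lower in shNR4A3 cells (13.1% and 15.0%). With the replicate number as block 8 rather than 5 of the 9 were called in shNR4A2 cells, where the block called 30.1% of all tested genes in either direction. In shNT cells 7 rather than 6 were called without the filter, with all 18 libraries in 1 fit or by DESeq2 (10.0%, 20.8% and 18.7% of all genes tested there). Those fits also took in IL2RA, which had 1 count in the shNT control libraries and 26 with LPS. The median log2 fold change of the 9 was 0.81, 0.74 and 0.90 in the 3 lines, beside -0.01, -0.02 and -0.01 over all genes. Since the 10 genes were chosen with these differences known, nothing is read from these shares.

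Against shNT cells, 3 of the 9 were higher and 1 lower in shNR4A2 control cells (3.63% and 2.82% of all genes) and in shNR4A2 cells with LPS (4.31% and 2.65%), the latter 7 called rather than 4 with the block, which called 28.1% of all genes there. In shNR4A3 cells also 3 were higher and 1 lower, without LPS (3.91% and 3.32%) and with LPS (3.99% and 2.46%). With the block 6 rather than 4 were called in shNR4A2 control cells and in shNR4A3 cells with LPS. The block called 3733 of 15800 and 3401 of 15578 tested genes there. With 1 library left out, 1 to 4 of the 9 were called for shNR4A2 in both states and 1 to 6 for shNR4A3 with LPS. Genes called in all then ran from 517 to 1128, from 342 to 1477 and from 383 to 1693. The median log2 fold changes of the 9 were 0.29 and 0.42 in shNR4A2 cells and 0.27 and 0.35 in shNR4A3 cells. All-gene medians were -0.01 to 0. Between the 2 knockdown lines, 1 was higher and 1 lower in shNR4A2 than in shNR4A3 control cells (1.94% and 1.14%) and 0 higher and 1 lower with LPS (1.27% and 1.06%), or 5 and 4 called with the block, which called 11.6% and 23.6% of all genes there. In the main edgeR fit no member had an LPS response that differed between a knockdown line and shNT cells. The fit called 0 genes in all (0% of those tested), with 365 (shNR4A2) and 824 (shNR4A3) at an unadjusted p under 0.05. DESeq2 called 2 and 8 genes and edgeR with the replicate block 8 and 22, with no member. Without the filter on low counts edgeR called 29 and 138 genes, with 0 and 1 members.

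**Figure D2:**
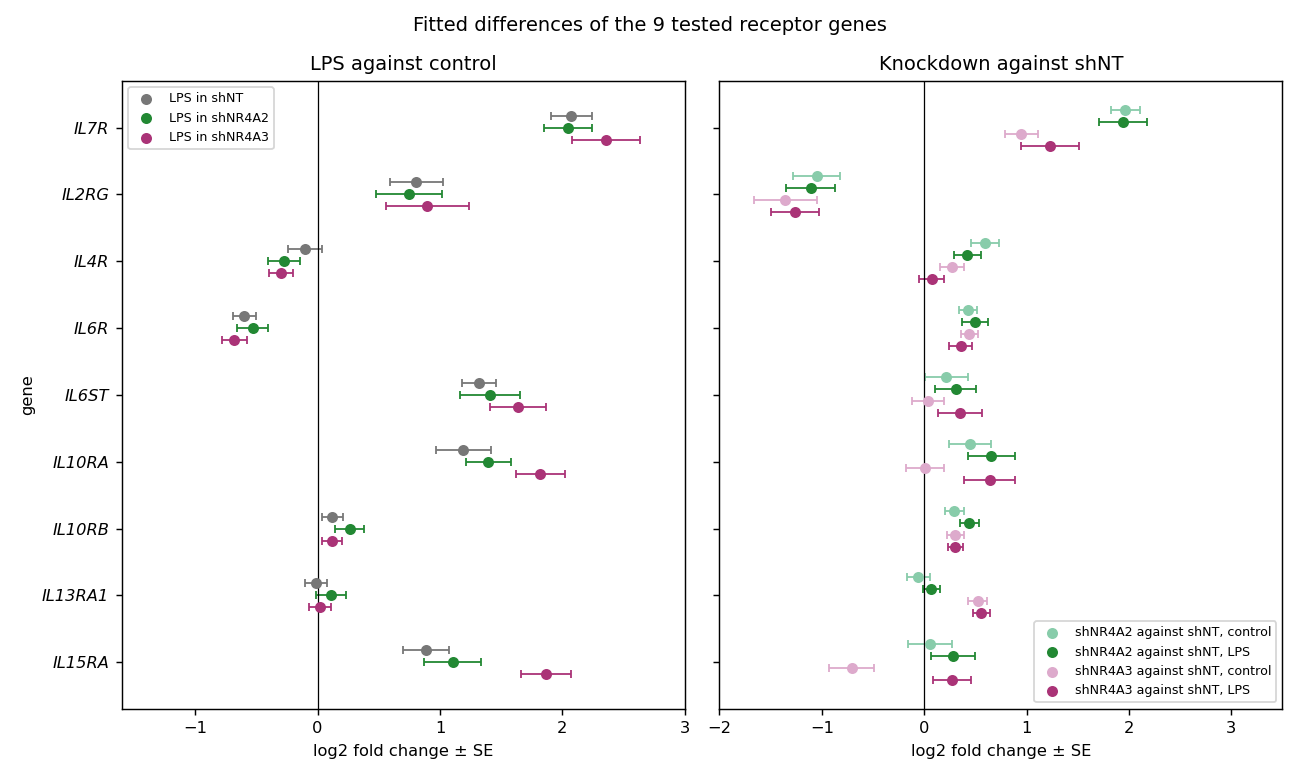
Log2 fold change (horizontal axis) ± SE (whiskers) of the 9 tested receptor genes (rows), LPS against control in each line on the left and knockdown lines against shNT on the right. IL7R lies at 0.95 to 1.97 in the knockdown comparisons and IL2RG at -1.36 to -1.05.

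**Figure D3:**
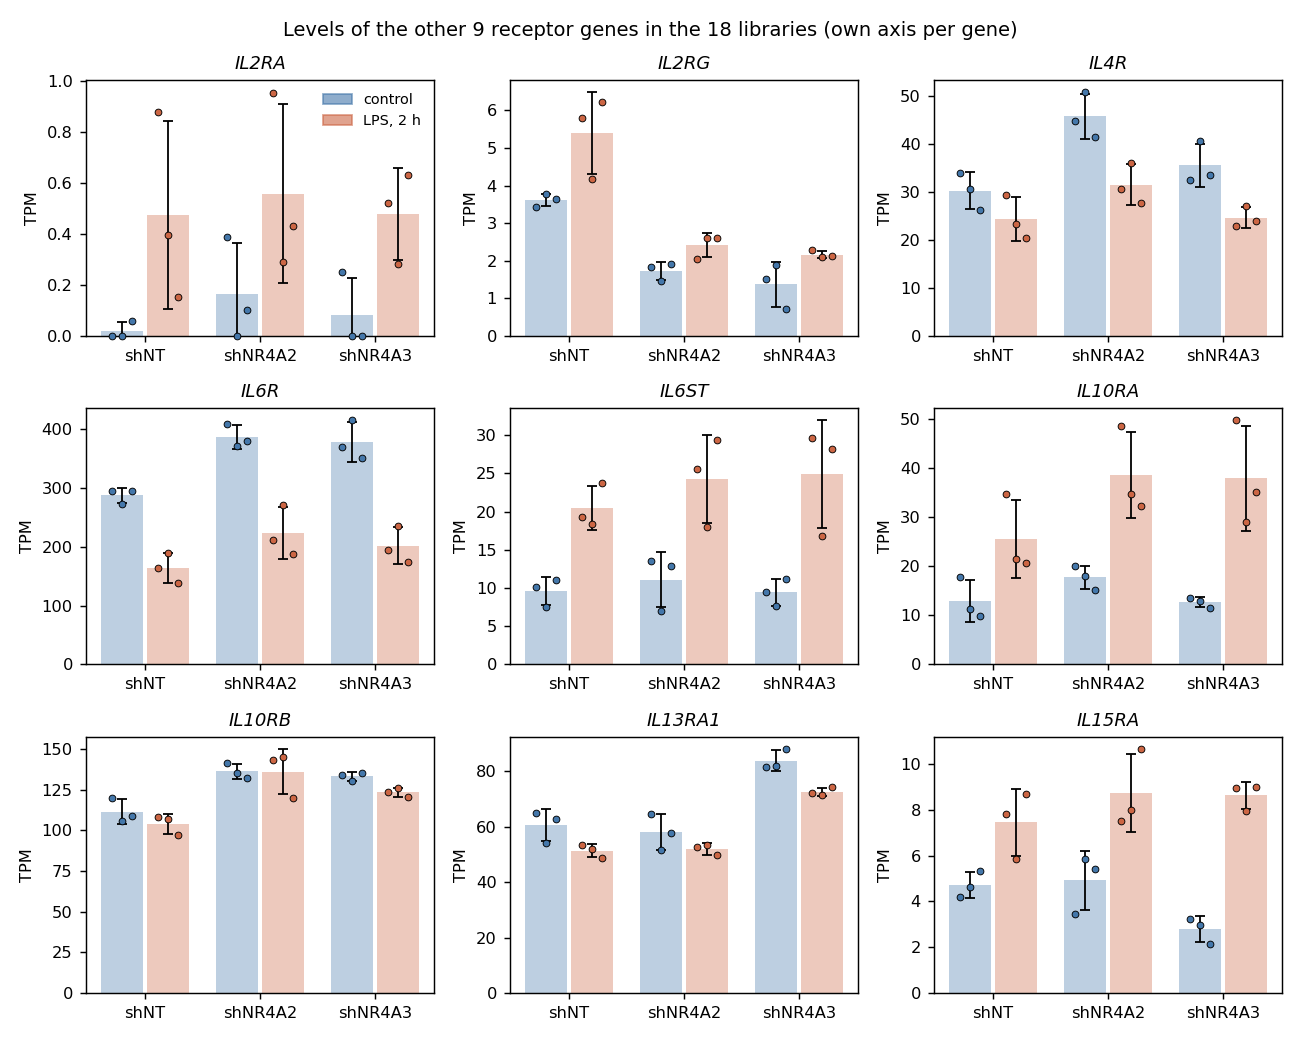
Level in TPM (vertical axes starting at 0, a separate scale for each gene) of the other 9 receptor genes in the 3 lines (horizontal axes) without LPS (blue) and with LPS for 2 h (orange); points are the 3 libraries, bars their mean and whiskers 1 SD. IL6R is the most abundant (164 to 387 TPM by group) and IL2RA lies under 1 TPM in every library.

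A shift between the scales matters for small LPS differences. Over all tested genes the log2 ratio of TPM lay below the fitted log2 fold change, which uses TMM scaling, by a median of 0.22 in shNT, 0.27 in shNR4A2 and 0.23 in shNR4A3 cells for LPS against control (median difference -0.22, -0.27 and -0.23), and by at most 0.06 between lines. A gene whose TPM was slightly lower with LPS can therefore have a fitted value near or above 0, as was the case for IL10RB and IL13RA1.

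IL2RG (ENSG00000147168, chromosome X, 71107404 to 71112108, minus strand), the common gamma chain that pairs with IL7R and also serves the receptors of IL-2, IL-4, IL-15 and IL-21, was scarce and lower in both knockdown lines. It had 3.44, 3.77 and 3.65 TPM in shNT control libraries (157 counts in all), 1.84, 1.45 and 1.91 TPM in shNR4A2 control libraries (86 counts) and 1.52, 1.89 and 0.721 TPM in shNR4A3 control libraries (54 counts). With LPS it had 5.81, 4.18 and 6.24 TPM in shNT cells, 2.05, 2.62 and 2.60 TPM in shNR4A2 cells and 2.28, 2.10 and 2.12 TPM in shNR4A3 cells. Every library of either knockdown line lay below every shNT library of the same state, and also below every shNT control library when treated with LPS.

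The log2 fold changes of IL2RG against shNT were -1.05 (SE 0.23) and -1.11 (SE 0.24) in shNR4A2 cells, without and with LPS, and -1.36 (SE 0.31) and -1.26 (SE 0.24) in shNR4A3 cells. The 2 genes IL7R and IL2RG thus differed from shNT cells in opposite directions in all 4 comparisons.

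With LPS, IL2RG lay higher than in control cells in every line, by 0.81 (SE 0.22), 0.74 (SE 0.27) and 0.90 (SE 0.34), and the groups did not overlap.

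The TPM ratio of IL7R to IL2RG was 1.85 ± 0.402 (SD, n = 3) in shNT control cells, 15.1 ± 1.19 in shNR4A2 control cells and 11.3 ± 8.25 in shNR4A3 control cells, where the single libraries had 7.01, 6.16 and 20.9. With LPS it was 4.48 ± 0.749, 37.2 ± 12.0003 and 24.7 ± 8.69. The shNT libraries did not overlap those of either knockdown line in either state. In shNR4A3 control replicate 3, the library with a ratio of 20.9, IL2RG had 10 counts. CRLF2, the partner of IL7R in the TSLP receptor, was not called in any comparison.

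**Figure D4:**
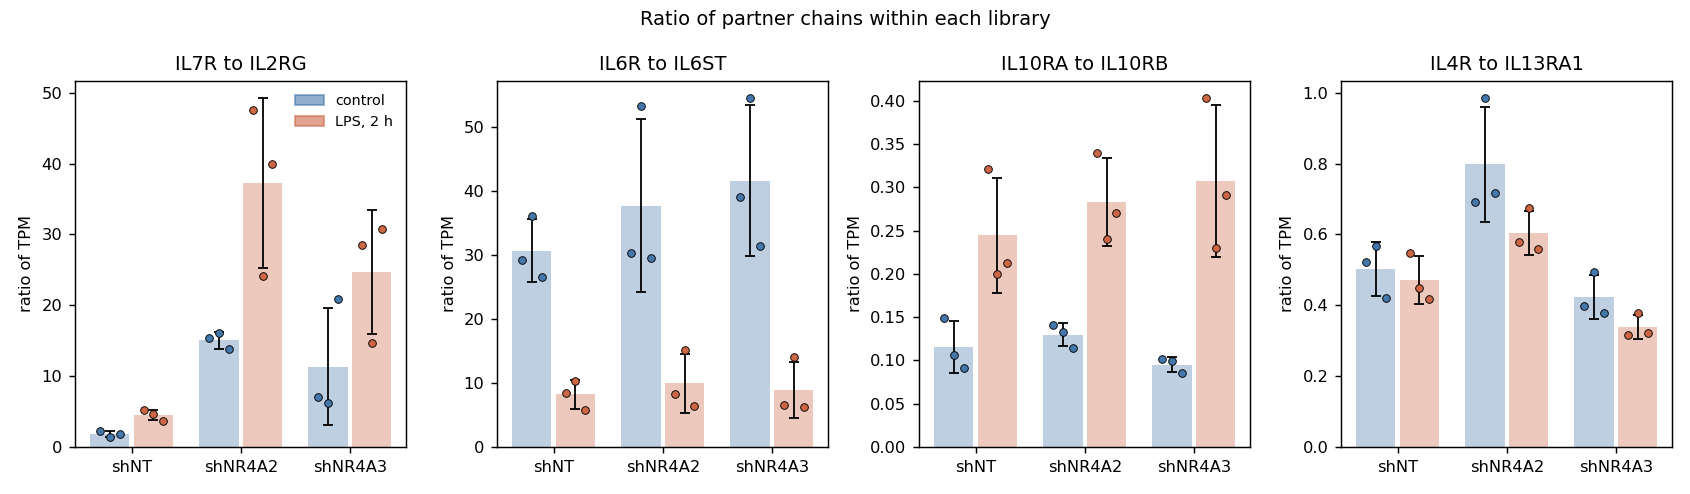
Ratio of the TPM of 2 partner chains within each library (vertical axes starting at 0) for 4 pairs in the 3 lines (horizontal axes), without LPS (blue) and with LPS for 2 h (orange); points are the 3 libraries, bars their mean and whiskers 1 SD. The ratio of IL7R to IL2RG is highest in shNR4A2 cells with LPS (37.2), and that of IL6R to IL6ST is lower with LPS in every line.

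IL2RA (ENSG00000134460, chromosome 10, 6010689 to 6062325, minus strand), the inducible alpha chain of the IL-2 receptor (CD25), was close to the limit of detection. It had 94 counts over the 18 libraries. The 3 LPS libraries of shNT, shNR4A2 and shNR4A3 cells held 26, 28 and 25 counts in all, and the control libraries held 1, 10 and 4 counts. In TPM the LPS libraries of the shNT and shNR4A3 lines all exceeded the controls of their line, in shNR4A3 cells by 0.281 against 0.251 TPM, and in the shNR4A2 line the groups overlapped. A difference between lines was not detectable at this depth. IL2RA shares 48 exon bases with AL137186.1 on the opposite strand, which had 68 counts in 18 libraries.

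IL15RA (ENSG00000134470, chromosome 10, 5943639 to 5978187, minus strand), which presents IL-15 to neighbouring cells, was also low and lay higher with LPS. It had 4.20, 4.64 and 5.34 TPM in shNT control libraries and 7.82, 5.85 and 8.72 TPM with LPS. In shNR4A2 cells it had 3.47, 5.88 and 5.43 TPM, and 7.51, 8.003 and 10.7 TPM with LPS. In shNR4A3 cells it had 3.24, 2.99 and 2.14 TPM, and 8.95, 7.97 and 9.03 TPM with LPS. The shNR4A3 control libraries were thus the lowest of all, while the LPS libraries of the 3 lines overlapped.

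Log2 fold changes of IL15RA with LPS were 0.89 (SE 0.19) in shNT, 1.10 (SE 0.24) in shNR4A2 and 1.87 (SE 0.20) in shNR4A3 cells. In the control state IL15RA differed by -0.71 (SE 0.22) between shNR4A3 and shNT cells and by 0.77 (SE 0.26) between shNR4A2 and shNR4A3 cells. The fitted LPS response of IL15RA in shNR4A3 cells minus that in shNT cells was 0.98 (SE 0.28), where the main fit called no gene. IL15RA shares 151 exon bases with AL137186.2 on the same strand (322 counts in 18 libraries, against 2229 for IL15RA), and how reads there were assigned is not given in the sources used here.

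IL4R (ENSG00000077238, chromosome 16, 27313668 to 27364778, plus strand) and IL13RA1 (ENSG00000131724, chromosome X, 118727572 to 118794539, plus strand) form the type II IL-4 and IL-13 receptor of myeloid cells. Without LPS, IL4R was highest in the shNR4A2 line and IL13RA1 in the shNR4A3 line. IL4R had 33.8, 30.6 and 26.3 TPM in shNT control libraries, 44.7, 50.7 and 41.5 TPM in shNR4A2 control libraries and 32.4, 40.6 and 33.4 TPM in shNR4A3 control libraries. The shNR4A2 libraries lay above both other lines, by 0.60 (SE 0.13) against shNT. With LPS the 3 lines had 20.4 to 29.2, 27.7 to 36.05 and 22.9 to 27.0 TPM. There shNR4A2 cells were higher than shNT cells by 0.42 (SE 0.14), with overlapping libraries. Against shNR4A3 cells they were higher by 0.32 (SE 0.12) and, with LPS, 0.35 (SE 0.097), with no overlap in either state.

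IL4R differed with LPS by -0.10 (SE 0.14), -0.28 (SE 0.13) and -0.30 (SE 0.097) in shNT, shNR4A2 and shNR4A3 cells, where only the shNT groups overlapped. IL4R shares 339 exon bases with AC106739.1 on the opposite strand, which had 134 counts in 18 libraries against 18362 for IL4R.

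IL13RA1 had 65.0, 54.0 and 62.7 TPM in shNT control libraries, 64.7, 51.6 and 57.8 TPM in shNR4A2 control libraries and 81.5, 82.1 and 88.1 TPM in shNR4A3 control libraries. With LPS the libraries had 48.8 to 53.5, 49.6 to 53.3 and 71.4 to 74.2 TPM. The shNR4A3 libraries lay above all libraries of the other lines in the same state, while shNT and shNR4A2 libraries overlapped. The difference from shNT was 0.52 (SE 0.091) without and 0.56 (SE 0.081) with LPS, and that of shNR4A2 from shNR4A3 cells was -0.58 (SE 0.11) and -0.49 (SE 0.088). With LPS, IL13RA1 differed by -0.02 (SE 0.090), 0.11 (SE 0.12) and 0.02 (SE 0.090) from control cells.

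The TPM ratio of IL4R to IL13RA1 was 0.502 ± 0.0754 (SD, n = 3) in shNT control cells, 0.797 ± 0.162 in shNR4A2 control cells and 0.424 ± 0.0619 in shNR4A3 control cells. With LPS it was 0.471 ± 0.0672, 0.604 ± 0.0627 and 0.339 ± 0.0342. The shNR4A2 and shNR4A3 libraries did not overlap in either state.

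IL6R (ENSG00000160712, chromosome 1, 154405193 to 154469450, plus strand), the alpha chain that binds IL-6, was the most abundant of the 10 genes in every group. It had 296, 273 and 295 TPM in shNT control libraries, 409, 371 and 380 TPM in shNR4A2 control libraries and 369, 415 and 351 TPM in shNR4A3 control libraries. With LPS it had 163, 190 and 139 TPM in shNT cells, 211, 272 and 188 TPM in shNR4A2 cells and 195, 236 and 175 TPM in shNR4A3 cells. All LPS libraries lay below the control libraries of their line, and replicate 2 was the highest of the LPS libraries in each.

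The LPS difference of IL6R was -0.60 (SE 0.092), -0.53 (SE 0.13) and -0.68 (SE 0.10) in shNT, shNR4A2 and shNR4A3 cells. Against shNT, IL6R was higher in shNR4A2 cells by 0.43 (SE 0.088) and, with LPS, 0.50 (SE 0.13). In shNR4A3 cells it was higher by 0.44 (SE 0.081) and, with LPS, by 0.36 (SE 0.11). The shNR4A2 and shNR4A3 lines differed by -0.01 (SE 0.096) and 0.14 (SE 0.13).

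IL6ST (ENSG00000134352, chromosome 5, 55935095 to 55994993, minus strand), the signal-transducing gp130 chain shared by IL-6, IL-11, LIF and oncostatin M, went the other way with LPS. It had 10.1, 7.57 and 11.1 TPM in shNT control libraries and 19.3, 18.4 and 23.8 TPM with LPS. In shNR4A2 cells it had 13.5, 6.95 and 12.8 TPM, and 25.5, 17.96 and 29.4 TPM with LPS. The shNR4A3 libraries had 9.46, 7.62 and 11.2 TPM, and 29.6, 16.9 and 28.2 TPM with LPS. No LPS library overlapped the control libraries of its line, and replicate 2 was the lowest of the 3 libraries in all 6 groups. The LPS differences were 1.32 (SE 0.14), 1.41 (SE 0.25) and 1.64 (SE 0.23).

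Between lines IL6ST overlapped in both states. The values against shNT were 0.22 (SE 0.21) and 0.31 (SE 0.20) for shNR4A2 and 0.03 (SE 0.16) and 0.35 (SE 0.22) for shNR4A3 cells. IL6ST shares 797 exon bases with AC008914.1 on the opposite strand, which had 0 counts.

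Transcript levels of the IL-6 receptor alpha chain exceeded those of gp130 in these cells, and less so after LPS. The TPM ratio of IL6R to IL6ST was 30.7 ± 4.91 (SD, n = 3), 37.7 ± 13.5 and 41.6 ± 11.8 in shNT, shNR4A2 and shNR4A3 control cells. With LPS it was 8.21 ± 2.25, 9.94 ± 4.60 and 8.92 ± 4.41. No LPS library overlapped a control library, and the lines overlapped one another.

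IL10RA (ENSG00000110324, chromosome 11, 117986348 to 118003037, plus strand), the ligand-binding chain of the IL-10 receptor, lay higher with LPS, while IL10RB (ENSG00000243646, chromosome 21, 33266358 to 33310187, plus strand), a chain shared with the IL-22, IL-26 and interferon lambda receptors, was abundant. IL10RA had 17.9, 11.2 and 9.88 TPM in shNT control libraries and 34.8, 21.4 and 20.6 TPM with LPS. In shNR4A2 cells it had 20.00, 18.05 and 15.2 TPM, and 48.7, 34.8 and 32.4 TPM with LPS. In shNR4A3 cells it had 13.6, 12.9 and 11.6 TPM, and 49.8, 28.9 and 35.1 TPM with LPS. Replicate 1 was the highest library in all 6 groups, and no LPS library overlapped the controls of its line.

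The LPS differences of IL10RA were 1.19 (SE 0.22), 1.40 (SE 0.18) and 1.82 (SE 0.20). Against shNT the values were 0.45 (SE 0.20) and 0.66 (SE 0.23) in shNR4A2 cells and 0.01 (SE 0.18) and 0.64 (SE 0.25) in shNR4A3 cells. Between shNR4A2 and shNR4A3 control cells the value was 0.44 (SE 0.14). The fitted LPS response of IL10RA in shNR4A3 cells minus that in shNT cells was 0.63 (SE 0.36), where the main fit called no gene.

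IL10RB, which shares 568 exon bases with AP000295.1 on its own strand (8 counts in 18 libraries), had 120, 106 and 109 TPM in shNT control libraries, 142, 136 and 132 TPM in shNR4A2 control libraries and 134, 130 and 136 TPM in shNR4A3 control libraries. With LPS the libraries had 97.2 to 108, 120 to 145 and 121 to 126 TPM. Every knockdown library lay above every shNT library of its state. With LPS the differences from shNT were 0.44 (SE 0.096) and 0.30 (SE 0.075). In the control state they were 0.29 (SE 0.094) and 0.31 (SE 0.087). The LPS differences were 0.12 (SE 0.085), 0.26 (SE 0.12) and 0.12 (SE 0.084). The ratio of IL10RA to IL10RB was 0.115 ± 0.0302, 0.130 ± 0.0137 and 0.0952 ± 0.00856 (SD, n = 3) in control cells and 0.244 ± 0.0664, 0.283 ± 0.0508 and 0.308 ± 0.0878 with LPS, with no overlap between the states.

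The 10 genes were ranked by mean TPM within each group. IL6R ranked 1, IL10RB 2, IL15RA 8, IL2RG 9 and IL2RA 10 in every group. IL7R ranked 7 in shNT control cells, 6 in shNR4A3 control and shNT LPS cells, 5 in shNR4A2 control cells, 4 in shNR4A3 cells with LPS and 3 in shNR4A2 cells with LPS. The summed level of the 10 genes was 528 ± 30.7, 688 ± 34.1 and 670 ± 30.7 TPM (SD, n = 3) in shNT, shNR4A2 and shNR4A3 control cells and 427 ± 35.03, 606 ± 36.6 and 550 ± 17.7 TPM with LPS, with IL6R and IL10RB the largest parts.

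A list of 32 other interleukin receptor chains was examined, of which 21 were tested for LPS. In shNT cells 4 rose and 3 fell, in shNR4A2 cells 3 rose and 2 fell and in shNR4A3 cells 3 rose and 2 fell, where 11.6% and 13.3%, 9.23% and 10.1%, and 13.1% and 15.0% of all tested genes were called higher and lower. The list medians were -0.09, 0.07 and -0.04 beside all-gene medians of -0.01 to -0.02. The subunits of the IL-18 receptor, IL18R1 and IL18RAP, rose most, by edgeR log2 fold changes of 5.62 (SE 0.48, adjusted p = 9.36e-07) and 5.40 (SE 0.34, adjusted p = 3.41e-08) in shNT cells, and by 6.96 and 5.90 in shNR4A2 and 6.63 and 6.69 in shNR4A3 cells. IL18R1 went from 0.161, 0.191 and 0.175 to 9.97, 3.60 and 9.13 TPM in shNT cells, with replicate 2 lowest among the LPS libraries. IL12RB2, a chain of the IL-12 receptor, rose by 0.90, 1.24 and 1.29, while IL17RA fell by 0.82, 0.89 and 0.72 and IL21R, another partner of IL2RG, fell by 1.70, 1.31 and 1.91. In shNT cells IL3RA (0.32) and IL17RE (-0.91) were called as well, each lost without any of 4 libraries (0.26 to 0.33 and -0.93 to -0.73).

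Called differences between lines were few among the other chains. Of the 20 tested for shNR4A2 against shNT in the control state and the 21 tested with LPS, OSMR alone was called, with no gene lower (list medians 0.14 and 0.29), where 3.63% and 4.31% of all tested genes were called higher and 2.82% and 2.65% lower. OSMR, which pairs with IL6ST to bind oncostatin M, had 0.367, 0.493 and 0.451 TPM in shNT control libraries, 1.01, 1.28 and 1.90 TPM in shNR4A2 and 0.306, 0.315 and 0.389 TPM in shNR4A3 control libraries. It was higher in shNR4A2 than in shNT cells by 1.67 (SE 0.31, edgeR adjusted p = 0.00765) without and 1.66 (SE 0.30, adjusted p = 0.0122) with LPS, the latter not called without shNT LPS replicate 1 (1.53). It was also higher than in shNR4A3 cells, by 1.99 (adjusted p = 0.00475) and 2.30 (adjusted p = 0.0134), the latter not called without shNR4A3 LPS replicate 1 (2.26).

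In shNR4A3 cells 1 of 19 tested chains rose and 2 fell without LPS, and 0 of 21 rose and 1 fell with LPS (list medians -0.03 and 0.01), where 3.91% and 3.32% of all tested genes were called higher and lower without and 3.99% and 2.46% with LPS. IL2RB, the beta chain shared by the IL-2 and IL-15 receptors, had 4.67, 5.18 and 6.72 TPM in shNT and 2.71, 3.75 and 3.26 TPM in shNR4A3 control libraries. It fell by 0.72 (SE 0.19, edgeR adjusted p = 0.0329) and, with LPS, by 1.04 (SE 0.22, adjusted p = 0.0210), calls lost without any of 4 libraries (-0.73 to -0.59) and any of 5 (-1.11 to -0.89). It was higher in shNR4A2 than in shNR4A3 control cells (1.03, adjusted p = 0.0227, lost without any of 4 libraries, 0.85 to 1.03). IL21R was higher in shNR4A3 than in shNT control cells by 0.74 (SE 0.14, edgeR adjusted p = 0.00554), and IL31RA was lower there (-0.76, adjusted p = 0.0480), a call lost without any of the 6 libraries (-0.85 to -0.58).

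Among 22 ligands of the 10 receptors, 6 passed the filter for LPS in shNT cells and 7 in each knockdown line, of which 4, 5 and 5 rose and 1, 0 and 1 fell (of all tested genes 11.6%, 9.23% and 13.1% rose and 13.3%, 10.1% and 15.0% fell). IL6 had no count in shNT or shNR4A2 control cells and 87 and 248 counts with LPS, which is at least 27.0-fold and at least 94.2-fold higher against a floor of 3 counts over the 3 control libraries. In shNR4A3 cells it had 1 count without and 272 counts with LPS. EBI3, a subunit of IL-27 and IL-35, rose by 6.07, 6.31 and 6.20 on the log2 scale in shNT, shNR4A2 and shNR4A3 cells, LIF by 4.86, 4.66 and 4.26 and TSLP by 2.34, 2.87 and 2.84. CLCF1 fell by 1.21 in shNT cells (lost without any of 5 libraries, -1.38 to -0.86) and by 1.86 in shNR4A3 cells (lost without any of 3, -1.75 to -1.39). With IL6 at its bound, the list median was 3.54 in shNT and 4.66 in shNR4A2 cells.

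IL7, the ligand of IL7R, was at the floor without LPS, with 3, 3 and 2 counts over the 3 control libraries of shNT, shNR4A2 and shNR4A3 cells. With LPS it had 35, 86 and 118 counts. The LPS libraries held 0.719, 0.372 and 0.664 TPM in shNT, 1.61, 1.37 and 1.71 TPM in shNR4A2 and 2.61, 1.71 and 2.17 TPM in shNR4A3 cells, so neither knockdown line overlapped shNT. The difference from shNT with LPS was 1.46 (SE 0.34, edgeR adjusted p = 0.0341) in shNR4A2 cells, a call lost without any of 5 libraries (1.20 to 1.62), and 1.94 (SE 0.34, adjusted p = 0.0107) in shNR4A3 cells. TSLP, the other ligand that IL7R serves, was not called between any 2 lines.

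With LPS, 2 of 7 tested ligands were higher and 0 lower in shNR4A2 than in shNT cells (list median 0.32, with 4.31% and 2.65% of all tested genes), IL7 and IL6 (1.69, adjusted p = 0.0272 by edgeR, lost without any of 3 libraries, 1.38 to 1.66). In shNR4A3 cells 3 were higher and 1 lower (list median 1.47, with 3.99% and 2.46% of all tested genes). IL6 was higher by 1.83 (adjusted p = 0.0343, lost without any of 4 libraries, 1.35 to 1.94), EBI3 by 1.54 (adjusted p = 0.0483, lost without any of 4, 1.27 to 1.48), and LIF was lower (-1.32, adjusted p = 0.00411). No ligand was called without LPS in either knockdown line against shNT (list medians -0.22 and -0.57 over 5 and 4 ligands, with 3.63% and 3.91% of all tested genes higher and 2.82% and 3.32% lower), by edgeR's quasi-likelihood test. OSM, oncostatin M, was lower in shNR4A2 than in shNR4A3 control cells (-0.99, adjusted p = 0.0493, lost without any of 5 libraries, -1.04 to -0.78).

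Of the 11 JAK kinases and STATs, JAK3, the kinase that binds IL2RG, was near 0 with 162 counts over 18 libraries, while JAK1, which binds IL7R and gp130 among other chains, had 66.4 to 73.2 TPM by group. With LPS, STAT4 rose by 1.71, 2.44 and 3.15 and STAT5A, the STAT most tied to IL-7 signalling, by 1.20, 1.67 and 1.88 in shNT, shNR4A2 and shNR4A3 cells, with edgeR adjusted p of 4.55e-05 and 1.73e-05 in shNT cells. These were 2 of 10 and 2 of 11 tested members of the list in shNT and shNR4A2 cells. In shNR4A3 cells STAT2 (0.82), JAK1 (0.27) and STAT3 (0.26) joined them, 5 of 10. JAK1 and STAT3 were not called there without any of 5 libraries (0.24 to 0.29 and 0.23 to 0.26). Their mean TPM went from 67.5 to 69.7 and from 78.4 to 79.8, and the STAT3 libraries overlapped. No member of the list fell with LPS, and of all tested genes 11.6%, 9.23% and 13.1% rose and 13.3%, 10.1% and 15.0% fell in the 3 lines. List medians were 0.11, 0.18 and 0.26.

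Between lines, STAT3 was lower in shNR4A2 control cells (-0.41, edgeR adjusted p = 0.0210, lost without any of 4 libraries, -0.42 to -0.38), and STAT4 was lower in shNR4A3 control cells (-1.04, adjusted p = 0.0201, lost without any of 4, -1.04 to -0.85). None of the 11 tested JAK kinases and STATs was called in shNR4A2 against shNT cells with LPS, where 4.31% of all tested genes were called higher and 2.65% lower. STAT3 was also lower in shNR4A2 than in shNR4A3 cells, by -0.41 and, with LPS, -0.43, calls that no fit without 1 library kept (-0.47 to -0.37). Of all tested genes 2.82% (shNR4A2) and 3.32% (shNR4A3) were called lower against shNT in the control state. Between the knockdown lines 1.14% and, with LPS, 1.06% were called lower in shNR4A2 cells. List medians against shNT were -0.01 and 0.01 for shNR4A2 and 0.05 and 0.30 for shNR4A3 cells.

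All 12 genes of a list of feedback and receptor shedding were tested. With LPS, 5 rose and 4 fell in shNT cells, 4 rose and 1 fell in shNR4A2 cells and 5 rose and 4 fell in shNR4A3 cells, and the list medians were -0.06, -0.04 and -0.02. Of all tested genes 11.6%, 9.23% and 13.1% rose and 13.3%, 10.1% and 15.0% fell. SOCS3, which inhibits signalling at gp130, went from 10.4, 7.16 and 8.56 TPM to 333, 271 and 318 TPM in shNT cells and rose by 5.36 (SE 0.14, edgeR adjusted p = 3.76e-12), and by 5.50 and 5.57 in the knockdown lines. ADAM17, the protease that sheds IL6R, rose by 0.58, 0.92 and 0.94, and the phosphatases PTPN1 (0.98, 0.95 and 1.20) and PTPN2 (0.62, 0.69 and 0.67) rose too. CISH, a feedback inhibitor induced by STAT5, fell by 2.14, 2.27 and 2.27. SOCS1 (-2.001 and -1.37), PIAS1 (-0.48 and -0.38) and SOCS2 (-0.50 and -1.07) were lower and PTPN11 (0.27 and 0.36) higher in shNT and shNR4A3 cells, in shNT cells without the SOCS2 call when any of 5 libraries was left out (-0.54 to -0.43) and without the PTPN11 call when any of 3 was (0.22 to 0.27).

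SOCS2, another STAT5-induced inhibitor, was the gene of this list called between lines. It had 4.15, 3.38 and 4.63 TPM in shNT control, 1.54, 1.91 and 1.92 TPM in shNR4A2 control and 2.50, 3.37 and 3.61 TPM in shNR4A3 control libraries. With LPS it had 2.37, 2.74 and 2.28, then 0.537, 1.37 and 0.631, then 0.900, 1.61 and 1.36 TPM. Against shNT it was lower by log2 fold changes of -1.18 (edgeR adjusted p = 0.00301) and, with LPS, -1.49 (adjusted p = 0.0184, lost without any of 4 libraries, -1.53 to -1.29) in shNR4A2 cells and of -0.88 with LPS in shNR4A3 cells (adjusted p = 0.0388, lost without any of 5, -0.94 to -0.71). It was also lower in shNR4A2 than in shNR4A3 control cells (-0.86, adjusted p = 0.0403, lost without any of 5, -0.93 to -0.75). SOCS2 was 1 of 12 tested genes in each of these comparisons. There 2.82%, 2.65%, 2.46% and 1.14% of all tested genes were called lower, in that order. List medians against shNT were -0.09 and 0.03 for shNR4A2 and 0.00 and 0.12 for shNR4A3 cells.

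Of 10 genes known as STAT targets 9 were tested in each comparison. With LPS, 4 rose and 2 fell in shNT cells, 4 rose and 1 fell in shNR4A2 cells and 4 rose and 2 fell in shNR4A3 cells (list medians 0.23, 0.21 and 0.42), beside the same shares of all tested genes. PIM1 rose by 1.86, 2.20 and 2.26, PIM2 by 2.02, 2.15 and 2.45, BCL3 by 1.65, 1.86 and 1.88 and the survival gene MCL1 by 0.93, 0.99 and 0.94. MYC fell by 2.74, 1.60 and 2.24, and FOSL2 was lower in shNT (-0.62) and shNR4A3 cells (-0.74). Between lines, BCL3 was higher in shNR4A2 cells with LPS (0.67, edgeR adjusted p = 0.0266, lost without any of 3 libraries, 0.54 to 0.65) and in shNR4A3 cells without (0.59, adjusted p = 0.0137, lost without shNT control replicate 3, 0.46) and with LPS (0.81, adjusted p = 0.0105). MYC was lower in shNR4A2 than in shNT control cells (-0.62, adjusted p = 0.00207) and than in shNR4A3 control cells (-0.54, adjusted p = 0.00627, lost with all 18 libraries in 1 fit, -0.55, adjusted p = 0.0828), and BCL2 was lower in shNR4A2 control cells (-0.39, adjusted p = 0.0300, lost without any of 5, -0.40 to -0.35). Of all tested genes 4.31%, 3.91% and 3.99% were called higher in the BCL3 comparisons, in that order. In shNR4A2 control cells 2.82% were called lower against shNT and 1.14% against shNR4A3 cells. List medians against shNT were 0.10 and 0.26 for shNR4A2 and 0.07 and 0.38 for shNR4A3 cells.

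The genes whose pattern was most like that of IL7R were taken by Pearson correlation of log2 CPM (prior count 2) over the 18 libraries among 16934 genes, as a description in which the points share the 6 groups and each library's depth. They were ANXA5, the phospholipid-binding annexin V (0.98), DUSP5, a phosphatase of ERK (0.97), FSCN1, the actin bundler fascin (0.97), HTR7, a serotonin receptor (0.97), SAMSN1 (0.97), GPR137B (0.96), TUBB2A, a beta tubulin (0.96), and LCP1, the leukocyte plastin (0.96). Over libraries centred within their groups the correlation of ANXA5 was still 0.93 and that of SAMSN1 0.90, while that of HTR7 was 0.43. ANXA5 had a mean of 167, 236 and 214 CPM in shNT, shNR4A2 and shNR4A3 control cells and 248, 418 and 342 CPM with LPS. By rank correlation 3 of these 8 were again among the 8 most like IL7R. Of the other members, IL10RA (0.90) and IL6ST (0.85) were the most like IL7R, IL4R (0.11) and IL2RG (0.07) were near 0 and IL6R was negative (-0.37).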

How the data were processed

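Per the submitters' processing notes, the authors trimmed reads with Trimmomatic 0.36, aligned them with STAR 2.5.2b to GRCh38 and counted them per gene with featureCounts of Subread 1.5.2. The authors deposited raw counts and a merged exon length per gene for each library. The strand setting is not given in the sources used here. TPM was computed from counts and length. Differences were tested in edgeR 4.0.16 (R 4.3.3; filterByExpr, TMM, quasi-likelihood F test, Benjamini-Hochberg over all genes tested, limit 0.05), each on the 6 libraries compared or, for differences between LPS responses, on 12. The method was tested on simulated data. Alternatives were DESeq2 1.42.0, RLE size factors, no filter, a replicate block, all 18 libraries in 1 fit and each library left out. Figures used Python 3.11.15 and matplotlib 3.10.9.

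The 10 genes and all lists were chosen with earlier results of these data known. Named are all 10 genes, the NR4A genes, each list gene called in at least 1 comparison and the 8 genes most like IL7R. Some results for list genes are not reported here. Library deviations from group means correlated over 0.1 between all same-numbered pairs in 7 of the 11 comparisons (for example 0.217 to 0.244 for shNR4A2 against shNT control). The numbers come from the labels and were taken to pair samples there. The main fits nevertheless held no replicate term, which only the alternative with a replicate block added.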

Additional observations from a re-analysis of the deposited data

How the results depend on the processing

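No fold change of a named gene changed sign past the limit under any alternative run. With the replicate block, genes called went from 3050 to 4751 for LPS in shNR4A2, from 1019 to 3733 and from 1085 to 4385 for shNR4A2 against shNT in control and LPS cells, from 1108 to 2267 and from 1005 to 3401 for shNR4A3 against shNT, from 480 to 1800 and from 362 to 3666 for shNR4A2 against shNR4A3, and from 0 to 8 and 22 for the differences in LPS response of shNR4A2 and shNR4A3. Of the 9 receptor genes the block called 8 in place of 5 for LPS in shNR4A2, 7 in place of 4 for shNR4A2 against shNT with LPS, and 5 in place of 2 and 4 in place of 1 for shNR4A2 against shNR4A3 in control and LPS cells, where it called 30.1%, 28.1%, 11.6% and 23.6% of all tested genes. In shNR4A3 against shNT control cells the numbers did not pair the samples (lowest correlation 0.0767). Without the filter on low counts, genes called were 1611 and 1843 for shNR4A2 against shNT, 1839 for shNR4A3 against shNT with LPS, 838 and 1102 for shNR4A2 against shNR4A3 and 29 and 138 for the differences in LPS response, with 2 receptor genes in place of 1 for shNR4A2 against shNR4A3 with LPS and 1 in place of 0 for the LPS response of shNR4A3. With all 18 libraries in 1 fit they were 4601 for LPS in shNR4A2, 1691 for shNR4A2 against shNT with LPS and 1032 for shNR4A2 against shNR4A3 with LPS. DESeq2 gave 698 for the last and 2 and 8 for the differences in LPS response. Calls of list genes lost with all 18 libraries in 1 fit were CLCF1 (-1.21), IL3RA (0.32) and SOCS2 (-0.50) for LPS in shNT, IL7 (1.45) for shNR4A2 against shNT with LPS, BCL2 (-0.40) for the control state, IL2RB (-0.72), IL31RA (-0.76) and STAT4 (-1.04) for shNR4A3 against shNT control cells, and MYC (-0.55) and OSM (-0.9997) between the knockdown lines without LPS. Those lost without the filter were IL3RA (0.32) and SOCS2 (-0.50) in shNT and JAK1 (0.28) and STAT3 (0.26) in shNR4A3 cells for LPS. DESeq2 lost CLCF1 (-1.20 and -1.87 in shNT and shNR4A3), IL17RE (-0.90) and SOCS2 (-0.49) in shNT cells for LPS, IL31RA (-0.76) for shNR4A3 control cells and EBI3 (1.54) for shNR4A3 cells with LPS, and gave NR4A3 (-2.52) in shNR4A3 control cells no adjusted p. The causes were not tested. With 1 library left out, genes called ran from 517 to 1128 and from 342 to 1477 for shNR4A2 against shNT, from 649 to 975 and from 383 to 1693 for shNR4A3 against shNT, from 249 to 470 and from 94 to 217 for shNR4A2 against shNR4A3, and from 0 to 8 and from 0 to 44 for the differences in LPS response. Receptor genes called ran from 1 to 4 in both states for shNR4A2 against shNT, from 1 to 6 for shNR4A3 against shNT with LPS, and from 1 to 2 and from 0 to 1 for shNR4A2 against shNR4A3. The group order of 5 genes (IL10RB, IL13RA1, IL4R, IL6ST and IL7R) differed between TPM and CPM. Depth limits IL2RA (94 counts), IL2RG (764) and IL15RA (2229).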
